A study of Rattus norvegicus with 18 samples.

Results

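The 10 genes described here encode proteins by which cells take up glucose, ferment it to lactate and adapt to low oxygen. They are Hif1a, Slc2a1, Slc2a3, Slc16a3, Hk2, Pgk1, Ldha, Bnip3, P4ha1 and Vegfa. They were chosen by gene symbol, as well-known members of the hypoxia response and of glycolysis, and with earlier results of these data known. Counts of called members beside the share of all genes are therefore descriptive and no test of the pathway. The members make up 10 of the 10411 genes that carry a single symbol on the array. All 10 were present, through 15 probe sets, and 13 of these probe sets passed the low-signal filter. Where a gene had several tested probe sets, the brightest on average stands for it unless another is mentioned.

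When oxygen falls, the prolyl hydroxylases that mark the HIF-1 alpha protein for destruction slow down, and HIF-1 alpha accumulates and switches on genes for glucose import, glycolytic enzymes, lactate export and new vessels. This control acts on the protein, so the level of Hif1a messenger RNA does not report how much HIF-1 alpha is present. In the lung, ventilation can supply oxygen to the tissue even when blood flow is stopped, while a clamp across the whole hilum closes both the vessels and the airway.

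The genes were measured on 1-colour Affymetrix rat arrays in 18 lung samples of male Sprague-Dawley rats, 1 per array. The left lungs had been held under a hilar clamp for 2 h, warm and in place, in anesthetized and ventilated animals, and were then reperfused and ventilated, 3 of them for 30 min and 3 for 3 h. The right lungs of the operated rats, which were never clamped, were taken at the same times, again 3 at each. Lungs of 6 rats taken right after anesthesia and sacrifice were the controls (n = 6), so they lacked the tracheotomy, the thoracotomy and the hours of ventilation common to all 12 operated lungs. Whether a control lung was a left or a right one is not given. Clamp and side cannot be told apart, because every clamped lung was a left lung, and no lung was taken at the end of the clamp without reperfusion. No age of the animals is given.

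Signals are deposited MAS5 values, scaled to the same trimmed mean on each array, and differences were taken on the scale log2(signal + 25). Values of different probe sets cannot be set against each other as amounts of RNA. A gene is called higher or lower at a limma adjusted p under 0.05, adjusted over all 10533 tested probe sets. The precision of every value is limited by the number of arrays. In whole lung, fewer cells of a type and less RNA per cell cannot be told apart. Array medians ran from 231.9 to 283.1, and 3 arrays had a beta-actin 3' to 5' ratio above 2 (left 30 min replicates 1 and 3, right 30 min replicate 3), a sign of degraded RNA. Of 12 markers that define lung tissue 10 were on the array, and none of them was below a signal of 564 in any lung. Their summed signal was lower than in every control (74400 to 79900) in left lungs at 3 h (55600 to 70000) and in right lungs at 30 min (66400 to 71000). It overlapped the controls in left lungs at 30 min (65600 to 81100) and right lungs at 3 h (75300 to 87600). By mean log2 value the right lungs at 3 h (12.48 to 12.51) also lay below every control (12.53 to 12.63). Erythroid markers, 5 of 12 on the array with the lowest, Rhag, at 8.32, had a mean log2 value of 9.58 to 10 in right lungs at 30 min. This was above the 8.56 to 9.01 of controls, and the other operated groups overlapped the controls. By summed signal the right lungs at 30 min (17000 to 24600) overlapped the controls (12400 to 17100) too. The part of these shifts in the gene differences was not tested.

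In clamped left lungs reperfused for 3 h, 9 of the 10 genes were called higher than control and none lower. Across the 7728 tested genes 13.5% were called higher in this comparison and 24.1% lower. The median log2 difference of the 10 genes was 0.82, against -0.13 for all tested genes, and the highest single value was 2.18, for Slc2a3. The exception was Vegfa, with an unadjusted p of 0.043 toward a lower level. No control exceeded the filter limit of 173.6 in Hk2 or in either Slc2a3 probe set. Both genes were tested only because operated lungs exceeded it, so their calls against control, here and below, are no independent support. At 30 min in the left lungs 3 genes were called higher (Slc2a3, Slc16a3 and Ldha) and 1 lower (P4ha1), where 8.64% of all genes were called higher and 9.52% lower.

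In the unclamped right lungs at 30 min 1 gene was called higher (Slc2a3) and 1 lower (P4ha1), where 5.93% of all genes were higher and 6.33% lower. At 3 h 4 were called higher (Slc2a3, Slc16a3, Ldha and Bnip3) and 1 lower (P4ha1), against 7.75% and 12.6% of all genes. All of these comparisons share the same 6 controls. The count at 30 min in the right lungs was 0 without right 30 min replicate 1 or 2 and 1 without any 1 of the 6 controls, and in the left lungs it was 1 (Slc2a3) without left 30 min replicate 2. The count at 3 h in the right lungs was 3 without right 3 h replicate 3.

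Separation from the controls can also be counted lung by lung. In left lungs at 3 h 8 of the 10 genes lay above every control in all 3 lungs, as did 13.8% of all genes. At 30 min the left lungs had 4 such genes above the controls (12% of all genes) and 1 below (14.5%), and the right lungs 3 above (9.29%) and 2 below (11.4%). In right lungs at 3 h 5 lay above (10.4%) and 1 below (14.9%).

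**Figure D1:**
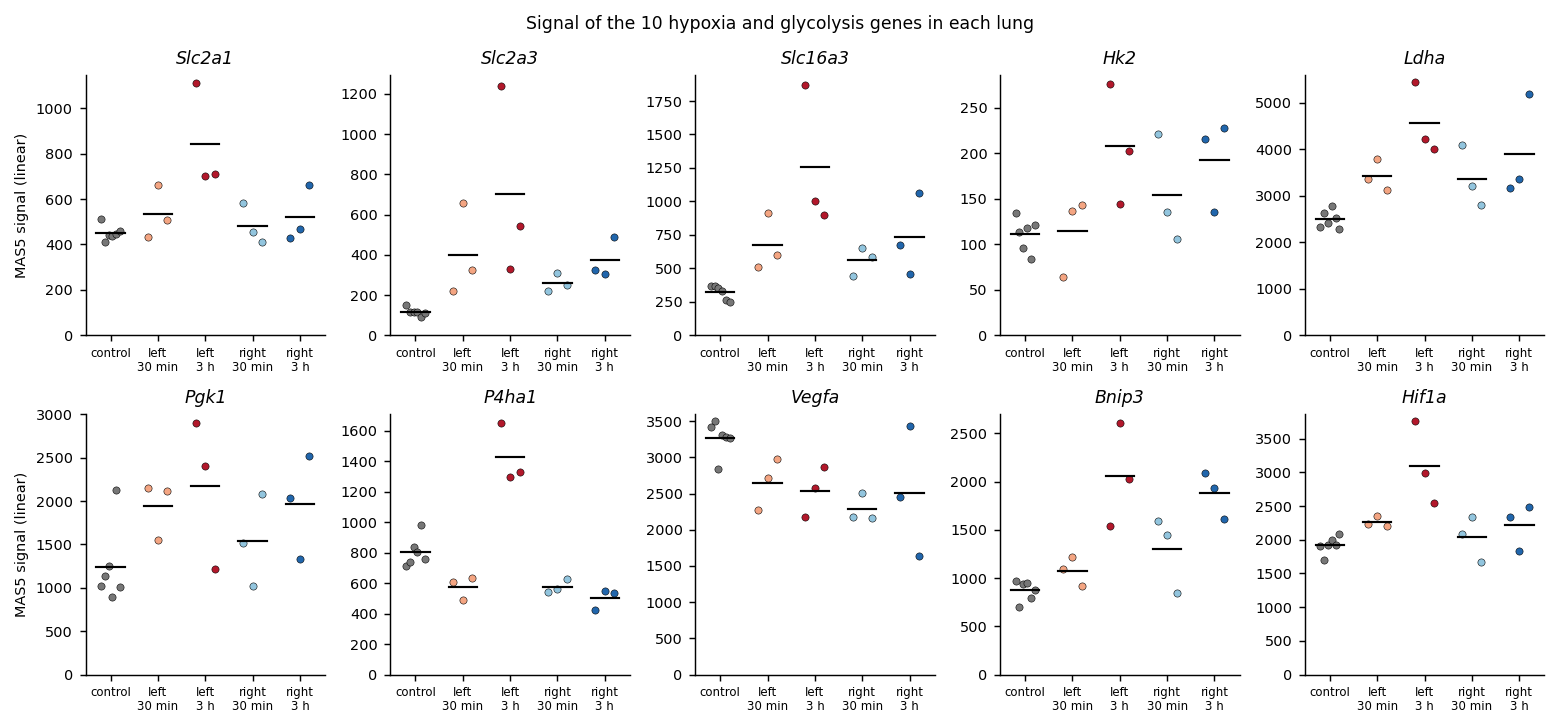
Signal of each of the 10 genes in each of 18 lungs, on a linear axis of MAS5 signal that starts at 0. Points are single lungs and bars are group means. The 3 left lungs at 3 h lie above every control in 8 of the 10 genes, the exceptions being Pgk1 and Vegfa, and P4ha1 is the gene in which the left lungs at 3 h stand above all other lungs while the right lungs at 3 h stand below every control.

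The response element bound by HIF-1 has a short core that can be read as ACGTG or GCGTG on either strand. Promoter sequences, from 250 bases before to 50 bases after the gene start in the RefSeq table for build GRCr8, were matched for 8 of the 10 genes, the others being Slc2a3 and Pgk1. A core was found in 5 of the 8, Slc2a1, Ldha, P4ha1, Bnip3 and Hif1a, and in neither Hk2, Slc16a3 nor either of the Vegfa starts. At least 1 such core occurs in 41.6% of all 33469 promoters listed (ACGTG 19.3%, GCGTG 29.7%). ACGTG is also part of the E-box CACGTG, which 6.42% of promoters hold. The stretches that carry the cores lying wholly before the gene start are shown for 4 genes called higher in the left lungs at 3 h, so that P4ha1, which was lower in the right lungs, can be read beside 3 that were not. Slc2a1, also called higher there and not called lower on the right, has 1 ACGTG and 3 GCGTG before the gene start. Its stretch of 165 bases is not shown. Cores on either strand are in capitals, and each sequence runs along the gene's own strand.
Ldha, chr1:106507993-106508091, plus strand: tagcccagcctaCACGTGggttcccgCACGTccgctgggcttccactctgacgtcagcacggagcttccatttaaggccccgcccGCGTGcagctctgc
Bnip3, chr1:203155036-203155082, minus strand: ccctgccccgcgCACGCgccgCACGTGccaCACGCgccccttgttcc
P4ha1, chr20:27844898-27844963, plus strand: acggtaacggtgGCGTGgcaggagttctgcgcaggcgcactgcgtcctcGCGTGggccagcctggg
Hif1a, chr6:98359657-98359750, plus strand: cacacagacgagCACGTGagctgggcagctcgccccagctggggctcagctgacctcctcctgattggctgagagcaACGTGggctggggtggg
Over the whole 300-base promoter and both strands P4ha1 had 1 ACGTG and 2 GCGTG, Ldha 3 ACGTG and 3 GCGTG, Bnip3 2 of each, and Hif1a 3 ACGTG and no GCGTG. The ACGTG of P4ha1 and 2 GCGTG of Ldha reach past the gene start and so lie outside the stretches shown. The E-box occurs once each in the Ldha, Bnip3 and Hif1a promoters, where its ACGTG is counted on both strands. A match of letters describes the window and is no evidence of binding.

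Hif1a encodes the oxygen-regulated subunit of HIF-1. Its signal in the 6 controls ran from 1707 through a median of 1924 to 2081. The left lungs at 30 min gave 2231, 2360 and 2212, just above the highest control, and at 3 h 3765, 2984 and 2546. None of the left lungs at 3 h overlapped the controls. The rise at 3 h was 1.59-fold (log2 difference 0.67 ± 0.13, SE, n = 3 against 6, limma adjusted p = 0.0011), while the 30 min lungs differed by 0.24 ± 0.13 (adjusted p = 0.22). The right lungs overlapped the controls at both times, with 2089, 2342 and 1673 at 30 min and 2343, 1830 and 2481 at 3 h (0.20 ± 0.13, adjusted p = 0.32). The other Hif1a probe set did not pass the filter and stayed between 17.05 and 28.35 in all lungs.

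Slc2a1 encodes GLUT1, the widely expressed glucose transporter. Controls ran from 411 through 443.5 to 514.1. The left lungs gave 431.8, 661.6 and 506.5 at 30 min and 1114, 703.2 and 710.1 at 3 h, so the groups overlapped at the first time and not at the second. At 3 h Slc2a1 was 1.78-fold above control (0.83 ± 0.17, SE, adjusted p = 0.0013). The right lungs at 3 h, at 429.5, 469.8 and 663.6, overlapped the controls (0.17 ± 0.17, adjusted p = 0.51). The left and right lungs at 3 h did not overlap, but their difference of 0.66 (95% interval 0.25 to 1.07) missed the threshold (adjusted p = 0.088), and it was called without right 3 h replicate 3 (0.84, adjusted p = 0.03).

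Slc2a3 encodes GLUT3, a transporter of high glucose affinity found in neurons and in white blood cells. Controls ran from 90.53 through 114.9 to 149.2, and all 12 operated lungs lay above them. The left lungs gave 218.4, 655.5 and 326.1 at 30 min and 1239, 329.5 and 541.8 at 3 h. The right lungs gave 222.1, 308 and 247.9 at 30 min and 325.5, 302.9 and 488.8 at 3 h. The spread among the left lungs was wide at both times. Against control Slc2a3 was 2.77-fold higher in the left lungs at 30 min (1.47 ± 0.32, adjusted p = 0.0041) and 4.52-fold at 3 h (2.18 ± 0.32, adjusted p = 9.3e-05). In the right lungs it was 2.01-fold (1.01 ± 0.32, adjusted p = 0.0445) and 2.78-fold higher (1.47 ± 0.32, adjusted p = 0.0038). The right 30 min call was lost in 15 of 22 alternatives, among them the omission of any 1 of the 6 controls or of the 3 right lungs at 30 min. The other Slc2a3 probe set was not called in any group, with mean signals of 112 ± 16.7 in controls (SD, n = 6) and 144 ± 47.9 in left lungs at 3 h (SD, n = 3, difference 0.28 ± 0.20, SE, adjusted p = 0.29). With both probe sets averaged Slc2a3 was still called in the left and right lungs at 3 h, but not in the left lungs at 30 min (0.72, adjusted p = 0.0546).

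Slc16a3 encodes MCT4, which carries lactate out of glycolytic cells. Controls ran from 250.8 through 344.6 to 368.5, and again all 12 operated lungs lay above them. The left lungs gave 508.4, 915.4 and 598.4 at 30 min and 1867, 1004 and 899.2 at 3 h, and the right lungs 444.9, 652.2 and 581.6, then 672.3, 457.1 and 1066. The difference from control was 1.97-fold in the left lungs at 30 min (0.98 ± 0.26, SE, adjusted p = 0.012), 3.53-fold at 3 h (1.82 ± 0.26, adjusted p = 6.3e-05) and 2.08-fold in the right lungs at 3 h (1.05 ± 0.26, adjusted p = 0.0078). At 30 min in the right lungs it was 0.75 ± 0.26 and did not pass (adjusted p = 0.062). The left 30 min call ended without left 30 min replicate 2 (0.74, adjusted p = 0.089), and the right 3 h call without right 3 h replicate 3 (0.75, adjusted p = 0.068).

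Markers of neutrophils, cells that carry GLUT3 and rely on glycolysis, were higher on the same arrays. Of 17 listed markers 9 were on the array. Their summed signal ran from 2830 to 4680 in controls, from 7380 to 19100 in left lungs at 30 min, from 9450 to 26500 in left lungs at 3 h, from 7360 to 13500 in right lungs at 30 min and from 9140 to 20700 in right lungs at 3 h. The left lungs highest in Slc2a3 and Slc16a3 were also highest in this sum, replicate 1 at 3 h with 26500 and replicate 2 at 30 min with 19100. No marker was at 0, the lowest being Padi4 at 6.17. The part of neutrophils in the levels of Slc2a3, Slc16a3 and the other genes was not tested.

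Hk2 encodes the inducible hexokinase that traps glucose in the cell, and its signal was low on every array. Controls ran from 83.92 through 115.7 to 134.7. The left lungs gave 64.2, 136.4 and 142.9 at 30 min, on both sides of the controls, and 276.2, 144.9 and 202.5 at 3 h, all above them. The rise at 3 h was 1.68-fold (0.75 ± 0.24, SE, adjusted p = 0.019) and ended without left 3 h replicate 1 (0.54, adjusted p = 0.15). The right lungs at 3 h, at 215.4, 135.2 and 228.4, also stood above every control, and their difference of 0.66 ± 0.24 just missed the threshold (adjusted p = 0.054), passing in some alternatives, among them each array centred on its median (0.74, adjusted p = 0.036) or without right 3 h replicate 2 (0.87, adjusted p = 0.031).

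Ldha encodes the A subunit of lactate dehydrogenase, which turns pyruvate into lactate. Controls ran from 2274 through 2467 to 2770. Every operated lung was above the highest control, with 3354, 3784 and 3132 in left lungs at 30 min, 5446, 4223 and 4005 in left lungs at 3 h, 4084, 3216 and 2801 in right lungs at 30 min and 3166, 3362 and 5185 in right lungs at 3 h. At 3 h Ldha was 1.81-fold higher in the left lungs (0.86 ± 0.15, SE, adjusted p = 0.00052) and 1.53-fold in the right lungs (0.61 ± 0.15, adjusted p = 0.01). At 30 min the differences were alike in size, 0.45 ± 0.15 on the left (adjusted p = 0.0471) and 0.42 ± 0.15 on the right (adjusted p = 0.084), although only the first passed. The left 30 min call was lost in 13 of 22 alternatives, and the right 3 h call without right 3 h replicate 3 (0.39, adjusted p = 0.087).

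Pgk1 encodes phosphoglycerate kinase, an enzyme of glycolysis that yields ATP. It gave the weakest of the 9 calls in the left lungs at 3 h. Controls ran from 898.1 through 1078 to 2122, control replicate 5 holding the highest value, and the left lungs at 3 h, at 2905, 2404 and 1211, overlapped them. The difference was 0.77 ± 0.30 (SE, adjusted p = 0.0498), and the call was lost in 16 of 22 alternatives, with the lowest value without left 3 h replicate 1 (0.51, adjusted p = 0.28) among those that left out 1 array. Another Pgk1 probe set gave 1290 ± 67.4 in controls (SD, n = 6) and 1500 ± 239 in left lungs at 3 h (SD, n = 3), a difference of 0.20 ± 0.11 (SE, adjusted p = 0.16). The remaining probe set did not pass the filter. Cardiac muscle markers, of which 13 of 14 were on the array, had a summed signal of 536 to 4500 in controls, 525 to 801 in left lungs at 3 h and 2670 to 12400 in right lungs at 3 h. Both 3 h groups overlapped the controls, while the left and right lungs at 3 h did not overlap each other. The lowest markers were Myh7 at 2.92 and Ryr2 at 5.17. With the mean of the cardiac markers as a covariate Pgk1 differed by 0.45 (adjusted p = 0.25) in the left lungs at 3 h and by 1.02 (adjusted p = 0.031) in the right lungs, where it was 0.66 ± 0.30 (adjusted p = 0.12) without that covariate and 0.83 (adjusted p = 0.0414) without control replicate 5.

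Bnip3 encodes a mitochondrial protein that directs damaged mitochondria to autophagy and is a classical HIF target. Controls ran from 698.9 through 909.4 to 968.5. At 30 min the left lungs, at 1097, 1217 and 919.2, and the right lungs, at 1597, 1450 and 848.4, overlapped the controls. At 3 h both sides were clear of them, with 1537, 2608 and 2028 on the left and 2088, 1939 and 1608 on the right. Bnip3 was then 2.28-fold above control on the left (1.19 ± 0.19, SE, adjusted p = 0.00017) and 2.12-fold on the right (1.09 ± 0.19, adjusted p = 0.00075). The difference between the sides at 3 h was 0.11, with a 95% interval of -0.35 to 0.57. Right 30 min replicate 3, an array of high actin ratio, was the lowest operated lung, and without it the right 30 min difference rose from 0.52 (adjusted p = 0.078) to 0.79 and was called (adjusted p = 0.0098).

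P4ha1 encodes the catalytic alpha subunit of collagen prolyl 4-hydroxylase, which works in the endoplasmic reticulum and lets collagen form a stable triple helix. It was the only 1 of the 10 genes called in opposite directions in the left and the right lungs. Controls ran from 713.7 through 781.3 to 979.6. At 30 min the left lungs gave 609.6, 488.6 and 631.6 and the right lungs 542.5, 560.9 and 624.6, all below every control. At 3 h the left lungs gave 1650, 1297 and 1328, above every other lung in the study, and the right lungs 426.6, 545.4 and 533.2, again below every control. The order of group means from low to high was right 3 h (502 ± 65.4, SD, n = 3), right 30 min (576 ± 43.1), left 30 min (577 ± 77.0), control (805 ± 96.7, n = 6) and left 3 h (1420 ± 196). The 3 lowest groups overlapped one another, while control and left 3 h were each clear of their neighbours.

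Against control P4ha1 fell by 0.47 ± 0.13 (log2, SE) in left lungs at 30 min (adjusted p = 0.014), by 0.46 ± 0.13 in the right lungs at 30 min (adjusted p = 0.022) and by 0.66 ± 0.13 in the right lungs at 3 h (adjusted p = 0.0016). In the left lungs at 3 h it rose 1.75-fold (0.80 ± 0.13, adjusted p = 0.00015). The left 30 min call ended without left 30 min replicate 2 (-0.36, adjusted p = 0.1), and the right 30 min call without right 30 min replicate 1 (-0.42, adjusted p = 0.092) or 2 (-0.44, adjusted p = 0.07). The rise on the left at 3 h and the fall on the right at 3 h held in all 22 alternatives.

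Vegfa encodes the main growth factor of blood vessels and a HIF target, and it was the only 1 of the 10 genes without a rise in any operated group. Controls ran from 2836 through 3291 to 3508. The left lungs gave 2272, 2715 and 2971 at 30 min and 2179, 2577 and 2867 at 3 h, and the right lungs 2178, 2506 and 2162, then 2453, 3437 and 1642. All 3 right lungs at 30 min were below every control, and the other operated groups overlapped the controls. The differences ran from -0.51 ± 0.17 (SE, right 30 min, adjusted p = 0.0506) to -0.30 ± 0.17 (left 30 min, adjusted p = 0.21), and none passed. Another Vegfa probe set was called lower at 30 min on both sides. Its signal averaged 1000 ± 169 in controls (SD, n = 6), 598 ± 227 in left lungs (SD, n = 3, -0.78 ± 0.26, SE, adjusted p = 0.0409) and 571 ± 237 in right lungs at 30 min (SD, n = 3, -0.86 ± 0.26, SE, adjusted p = 0.034). At 3 h it stood at 968 ± 22.6 on the left (-0.03 ± 0.26, adjusted p = 0.94) and 785 ± 178 on the right (-0.35 ± 0.26, adjusted p = 0.37). The arrays of high actin ratio fall among these 30 min lungs, and their part in the lower signal was not tested for this probe set.

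**Figure D2:**
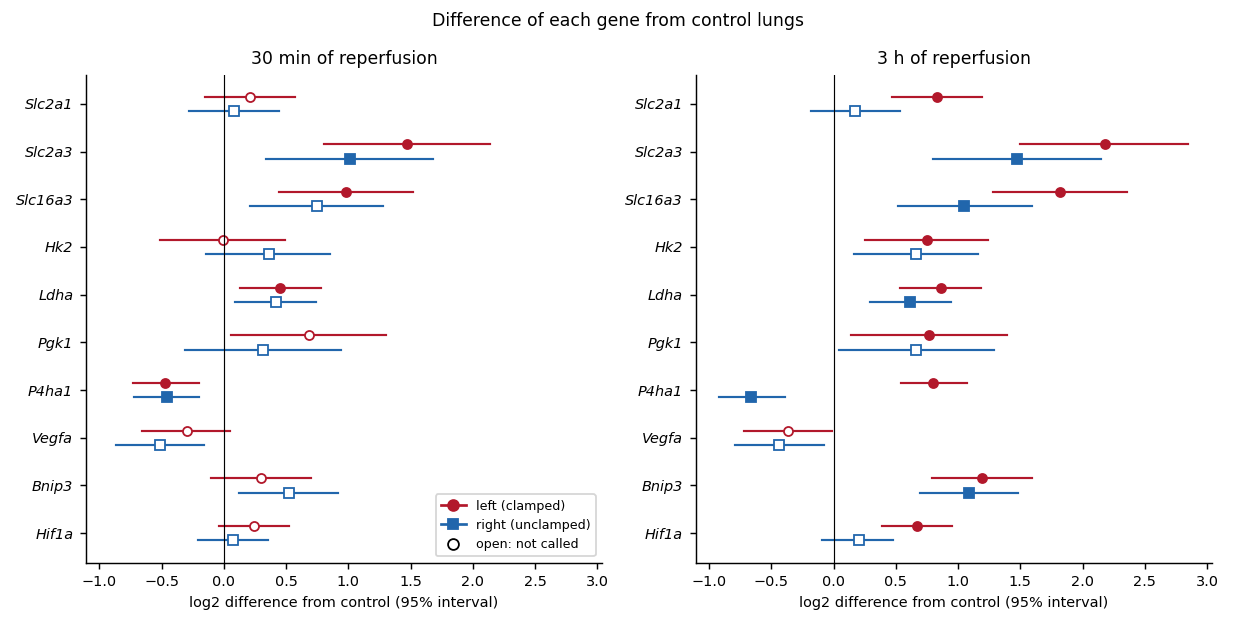
Log2 difference of each gene from the 6 control lungs, on the log2(signal + 25) scale, at 30 min and at 3 h of reperfusion, for clamped left lungs (circles) and unclamped right lungs (squares). Bars are 95% intervals of the limma fit, and filled symbols passed an adjusted p of 0.05. At 3 h the left lungs have 9 filled symbols, all to the right of 0, and P4ha1 lies at 0.80 on the left side of the animal and -0.66 on the right.

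A direct comparison of the clamped with the unclamped lung asks which of these genes separate the sides of the operated animals. The fit did not pair the lungs of an animal and treated all lungs as independent. At 30 min none of the 10 genes differed at an adjusted p under 0.05. None had an unadjusted p under 0.05 either, the smallest being 0.2 for Hk2, and across all genes only 0.0518% were called. The differences, left minus right, ran from -0.37 ± 0.27 (SE) for Hk2 to 0.46 ± 0.37 for Slc2a3, and the 95% interval for P4ha1 was -0.31 to 0.30. For Slc2a3 the 95% interval reached from -0.32 to 1.23.

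At 3 h 1 of the 10 genes, P4ha1, was called higher on the left than on the right, where 1.75% of all genes were called higher. It was 2.75-fold higher (log2 difference 1.46 ± 0.14, SE, n = 3 against 3, adjusted p = 1.6e-05) and held in all 19 alternatives. All 10 differences were above 0, from 0.07 ± 0.19 for Vegfa upward, and the next largest were Slc16a3 at 0.76 ± 0.29 (adjusted p = 0.18), Slc2a3 at 0.70 ± 0.37 (adjusted p = 0.34), Slc2a1 at 0.66 ± 0.20 (adjusted p = 0.088) and Hif1a at 0.47 ± 0.15 (adjusted p = 0.12). These are the values of the brightest probe sets. The other tested probe set of Slc2a3 went the other way (-0.15 ± 0.24), and those of Pgk1 and Vegfa were above 0 (0.10 and 0.31). The genes were measured in the same lungs and varied together, so their signs are not separate observations. The lungs of the sides did not overlap in P4ha1, Slc2a1 and Hif1a. Groups were as clear of each other, with the left higher, in 7.56% of all genes. Hk2, Ldha, Pgk1, Vegfa and Bnip3 differed by 0.24 or less between the sides.

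**Figure D3:**
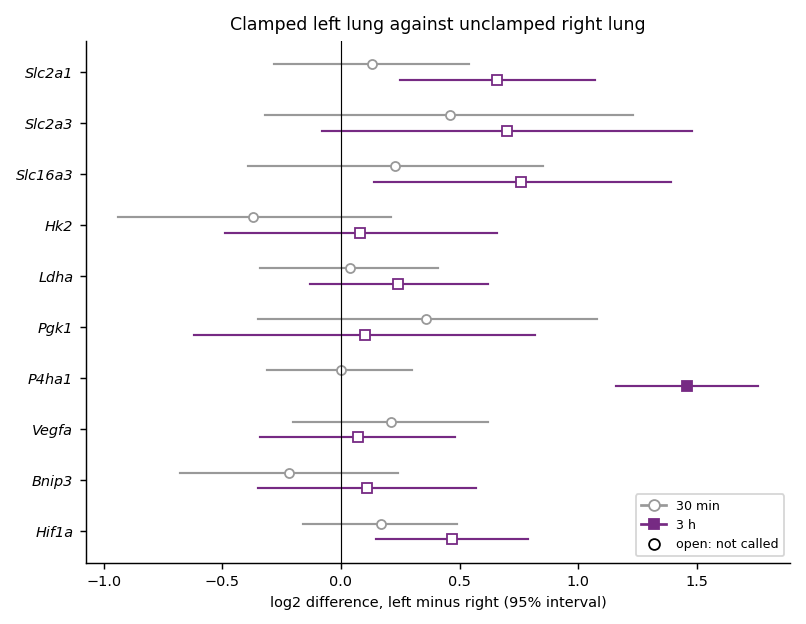
Log2 difference between clamped left and unclamped right lungs for each gene at 30 min (circles) and 3 h (squares), with 95% intervals, 3 lungs in each group. P4ha1 moves from 0.00 at 30 min to 1.46 at 3 h and is the only filled (called) symbol, while the intervals of the other genes overlap between the times.

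The change of the left-right difference between 30 min and 3 h was also tested directly. It was called for P4ha1 alone among the 10 (1.46 ± 0.20, SE, adjusted p = 0.0021), where 0.207% of all genes were called with a positive change. With the same-numbered left and right lung of each time as a block, fitted over the 12 operated lungs, the estimate was again 1.46 but the call ended (adjusted p = 0.24), in a fit that called 4 of all probe sets in place of 24. For the other genes the change ran from -0.26 ± 0.48 for Pgk1 to 0.53 ± 0.42 for Slc16a3, with adjusted p from 0.73 to 0.95.

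From 30 min to 3 h the left lungs rose in 2 of the 10 genes, P4ha1 by 2.41-fold (1.27 ± 0.14, SE, adjusted p = 0.00011) and Bnip3 by 1.86-fold (0.89 ± 0.22, adjusted p = 0.035), where 1.23% of all genes were called higher. The Bnip3 call was lost in 8 of 19 alternatives, among them the omission of left 3 h replicate 2 (0.71, adjusted p = 0.11), left 30 min replicate 1 (0.91, adjusted p = 0.13) or left 30 min replicate 3 (0.79, adjusted p = 0.12). Slc2a1, Hk2, Ldha and Hif1a also had all 3 lungs of the later time above all 3 of the earlier, without passing. A separation of this kind occurred in 8.19% of all genes. In the right lungs none of the 10 genes was called between the times by limma, with unadjusted p under 0.05 for 1 of them, Bnip3 (0.57 ± 0.22, unadjusted p = 0.019, adjusted p = 0.28). Only 0.194% of all genes were called there.

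Across the 5 groups together, the F test of equal means passed for 8 of the 10 genes, where 35.9% of all genes passed, and missed for Pgk1 (adjusted p = 0.13) and Vegfa (adjusted p = 0.08). Without left 3 h replicate 1 it passed for 5. Over the 18 arrays, which share group differences and, for left and right lungs, animals, the members varied together to unequal degrees. Slc2a3 and Slc16a3 followed each other most closely (Pearson r = 0.95, n = 18). P4ha1 correlated at 0.50 with Hif1a and at 0.56 with Slc2a1, but at 0.09 with Bnip3 and at 0.16 with Slc2a3. Vegfa ran against 8 of the other 9 genes, from -0.39 with Bnip3 to -0.70 with Ldha, and at 0.14 with P4ha1.

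Among all 7728 tested genes, those most like the 3 members of widest range were sought over the 18 arrays. For Slc2a3 they were Slc16a3 (r = 0.953), Nt5e (0.943), the ectoenzyme that makes adenosine, and Plaur (0.939), the urokinase receptor. For Slc16a3 they were Slc2a3, Selp (0.944), the adhesion molecule P-selectin, and Sdcbp2 (0.941). For P4ha1 they were the co-chaperones Dnaja4 (0.919) and Chordc1 (0.881) and the gene Luzp1 (0.887).

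Other genes of the same pathways were taken from lists. Of 9 tested HIF subunits and oxygen sensors none rose in the left lungs at 3 h by limma, where 2 had an unadjusted p under 0.05 toward a rise, and 3 fell, where 13.5% of all genes rose and 24.1% fell. The median difference of the list was -0.05, against -0.13 for all genes. Egln1, the prolyl hydroxylase PHD2 that marks HIF-1 alpha, fell 1.51-fold (-0.59 ± 0.10, SE, adjusted p = 0.00025) and Arnt2, a partner subunit, 1.80-fold (-0.85 ± 0.19, adjusted p = 0.0025). Rbx1, a part of the ubiquitin ligase that destroys HIF-1 alpha, fell 1.28-fold (adjusted p = 0.0093), a call that ended without left 3 h replicate 1 (-0.30, adjusted p = 0.062). In the right lungs at 3 h 2 of the 9 fell, where 12.6% of all genes did, Arnt2 (-0.84 ± 0.19, adjusted p = 0.0053) and Egln1 (-0.34 ± 0.10, adjusted p = 0.019), the latter not without right 3 h replicate 1 (-0.32, adjusted p = 0.068) or 2 (-0.29, adjusted p = 0.084). At 30 min on the left Egln1 was lower (-0.47 ± 0.10, adjusted p = 0.0029), and another prolyl hydroxylase, Egln2, was higher (0.54 ± 0.16, adjusted p = 0.021), though not without left 30 min replicate 1 (0.41, adjusted p = 0.13) or 3 (0.49, adjusted p = 0.084). Arnt, Hif3a, Egln3, Cited4 and Cul2 were on the array below the filter.

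Of 10 tested glycolytic enzymes beyond the members, 3 rose and 2 fell in the left lungs at 3 h, against 13.5% and 24.1% of all genes, with a list median of 0.20. The triose phosphate isomerase Tpi1 (0.49 ± 0.14, SE, adjusted p = 0.01) and the phosphoglycerate mutase Pgam1 (0.44 ± 0.12, adjusted p = 0.0083) were higher. The phosphofructokinase Pfkm (-0.49 ± 0.13, adjusted p = 0.0082) and Ldhb, the heart-type lactate dehydrogenase subunit (-0.47 ± 0.13, adjusted p = 0.0092), were lower. Without left 3 h replicate 1 each of these 4 missed the threshold (Tpi1 0.44, adjusted p = 0.0599, Pgam1 0.35, 0.068, Pfkm -0.40, 0.068, Ldhb -0.35, 0.085), as did Tpi1 without replicate 2 (0.41, adjusted p = 0.0597). Limma called none of the 10 in either group at 30 min or in the right lungs at 3 h. At an unadjusted p under 0.05, 1 was higher and 2 were lower in left lungs at 30 min. In right lungs 4 were lower at 30 min and 2 higher at 3 h. Ldhb was 1.76-fold lower and Tpi1 1.67-fold higher on the left than on the right at 3 h (adjusted p = 0.0083 and 0.021). Both calls ended with the cardiac marker covariate (Ldhb -0.79, adjusted p = 0.13, Tpi1 0.72, adjusted p = 0.23) and without left 3 h replicate 1 (Ldhb -0.70, adjusted p = 0.064, Tpi1 0.69, adjusted p = 0.12), and that of Tpi1 also without left 3 h replicate 2 (0.67, adjusted p = 0.0557) or right 3 h replicate 1 (0.61, adjusted p = 0.11).

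Among regulators of the glycolytic rate, Pfkfb3, which makes the activator of phosphofructokinase and is induced by hypoxia and by inflammation, was 3.49-fold higher in the left lungs at 30 min (1.80 ± 0.33, SE, adjusted p = 0.0012), 3.06-fold at 3 h (1.61 ± 0.33, adjusted p = 0.0013), 2.34-fold in the right lungs at 30 min (adjusted p = 0.021) and 2.15-fold at 3 h (adjusted p = 0.024). Its right-lung calls ended without right 30 min replicate 1 (1.02, adjusted p = 0.11) or 2 (1.2, adjusted p = 0.064), and without right 3 h replicate 1 (adjusted p = 0.088) or 3 (0.86, adjusted p = 0.14). Of the 15 tested regulators 3 rose at 30 min and 4 at 3 h on the left, 2 and 4 on the right, where the shares of all genes were 8.64%, 13.5%, 5.93% and 7.75%. None fell in any of these groups by limma, and at an unadjusted p under 0.05 1 was lower in left lungs at 30 min, 1 in right lungs at 3 h and 0 in the remaining groups. The pyruvate dehydrogenase phosphatase Pdp1 and the pyruvate dehydrogenase subunit Pdha1 rose on both sides at 3 h, Pdp1 by 1.59-fold on the left and 1.52-fold on the right.

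Of 7 other glucose and lactate carriers 1, the lactate carrier Slc16a1 (MCT1), rose at 3 h on each side, where 13.5% of all genes rose on the left and 7.75% on the right. It was 2.10-fold higher on the left (1.07 ± 0.21, SE, adjusted p = 0.0011) and 1.86-fold on the right (0.90 ± 0.21, adjusted p = 0.0073, but 0.66, adjusted p = 0.063, without right 3 h replicate 3). Another 2 carriers fell on the left and 1 on the right, where 24.1% and 12.6% of all genes fell. The sodium-coupled glucose carrier Slc5a1, dim with a mean signal of 181 in controls, fell by 0.90 ± 0.19 in the left lungs at 30 min (adjusted p = 0.0034) and by 0.79 ± 0.19 in the right (adjusted p = 0.012). Only its control mean exceeded the filter limit of 173.6, the means of the operated groups being 89.4 to 112. Slc5a1 may have been tested only through the controls, so its falls are no independent support. Of 5 tested hydroxylases related to P4ha1 1, the lysyl hydroxylase Plod2, rose in the left lungs at 3 h (0.69 ± 0.17, adjusted p = 0.0057), where 13.5% of all genes rose. Its call ended without left 3 h replicate 1 (0.42, adjusted p = 0.069). The sister subunit P4ha2, 1 of the 5, was called higher in the right lungs at 30 min (0.38 ± 0.12, adjusted p = 0.0419), where 5.93% of all genes were. The call was lost in 11 of 22 alternatives, among them the omission of any right 30 min replicate or of control replicate 1, 2, 3 or 6 (0.35 to 0.42, adjusted p 0.066 to 0.14).

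Of 16 further hypoxia targets tested, 6 rose and 1 fell in the left lungs at 3 h, and 3 rose in the right lungs, with list medians of 0.04 and 0.17. Of all genes 13.5% rose and 24.1% fell on the left, and 7.75% rose on the right. On the left the vasodilator peptide gene Adm was 4.49-fold higher (2.17 ± 0.41, SE, adjusted p = 0.00068), the stress gene Ndrg1 2.31-fold (1.21 ± 0.24, adjusted p = 0.00096), the mitochondrial Higd1a 2.08-fold (1.06 ± 0.12, adjusted p = 1.2e-05) and the collagen cross-linking enzyme Lox 1.82-fold (adjusted p = 0.0041). Higd1a (1.71-fold), Lox (2.00-fold) and the transferrin receptor Tfrc (2.54-fold, adjusted p = 3.5e-05) rose on the right. Tfrc was also called higher in the left lungs at 3 h (0.48 ± 0.17, adjusted p = 0.032), a value added after it was seen and not tried under the alternatives, and at 30 min on the left (0.88 ± 0.17, adjusted p = 0.0015) and the right (1.01 ± 0.17, adjusted p = 0.00073). Adm and Ndrg1 were higher on the left than on the right at 3 h (1.94 ± 0.47, adjusted p = 0.038, and 1.09 ± 0.27, adjusted p = 0.0453), and Tfrc was lower (-0.87 ± 0.19, adjusted p = 0.026). These 3 calls were lost in 8, 10 and 7 of 19 alternatives. Adm and Ndrg1 lost theirs without replicate 1 or 2 of the left 3 h or the right 3 h lungs, with Adm between 1.55 and 2.12 and Ndrg1 between 0.73 and 1.13, and Tfrc without replicate 1 or 3 of either group, with adjusted p from 0.0513 to 0.073.

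In the VEGF family, 1 of 7 tested genes rose and 2 fell in the left lungs at 3 h, and 1 rose and 3 fell in the right lungs. The shares of all genes were 13.5% and 24.1% on the left, and 7.75% and 12.6% on the right. Placental growth factor Pgf was 1.51-fold higher on the left and 1.67-fold on the right at 3 h (adjusted p = 0.024 and 0.012), but not without left 3 h replicate 1 (0.57, adjusted p = 0.085) or 2 (0.48, adjusted p = 0.12) and right 3 h replicate 1 (0.62, adjusted p = 0.065) or 3 (0.71, adjusted p = 0.0517). Its mean signal of 152 in controls was below the filter limit of 173.6, and its means of 242 to 275 in the operated groups were above it. Pgf may have been tested only because of the operated lungs, so its calls against control are no independent support. Kdr, the main VEGF receptor of endothelium, fell 1.49-fold on the left (-0.58 ± 0.13, SE, adjusted p = 0.0024) and 1.95-fold on the right (-0.96 ± 0.13, adjusted p = 7.8e-05), and the co-receptor Nrp1 fell 1.59-fold and 2.05-fold (adjusted p = 0.011 and 0.0012), the first not without left 3 h replicate 1 (-0.63, adjusted p = 0.0559) or 2 (-0.53, adjusted p = 0.074). At 30 min on the left 4 of the 7 fell, against 9.52% of all genes, and 1, Pgf, rose (0.73 ± 0.19, adjusted p = 0.013), against 8.64%. Vegfc fell by 0.48 ± 0.11 (adjusted p = 0.0074) and, with a lower signal, Vegfb by 0.59 ± 0.16 (adjusted p = 0.017), neither without left 30 min replicate 1 (-0.41, adjusted p = 0.0502, and -0.51, adjusted p = 0.091). The fall of Flt1 (-0.68 ± 0.21, adjusted p = 0.029) was lost in 8 of 22 alternatives.

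**Figure D4:**
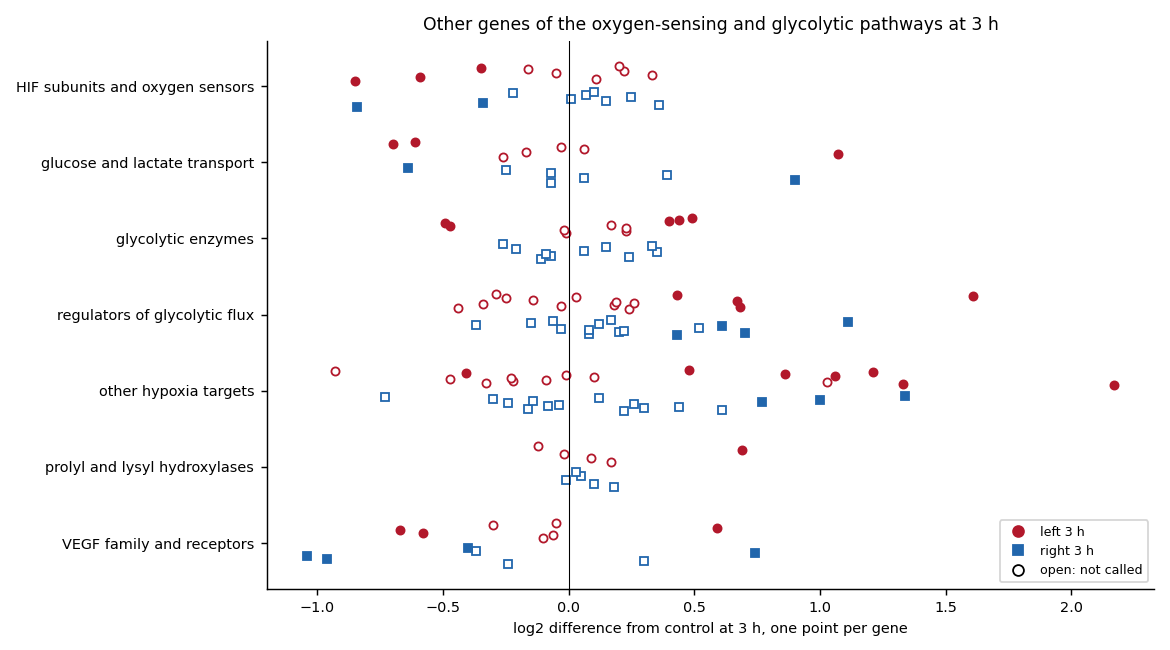
Log2 difference from control at 3 h, on the log2(signal + 25) scale, for each tested gene of 7 related lists, left lungs as circles and right lungs as squares, filled where called at an adjusted p under 0.05. The point farthest to the right is Adm at 2.17 in the left lungs, and the filled symbols of the HIF subunits and oxygen sensors all lie below 0.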

How the data were processed

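Total RNA of frozen lungs was labelled and hybridised to 1-colour Affymetrix rat 230A arrays, per the labels' protocols. The deposited values are linear intensity signals that the authors made with MAS5, per the submitters' processing notes, and each array had been scaled to the same 2% trimmed mean, 500.1. GeneSpring 7.2 is named in the series text for later analysis. No further scaling was applied.

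After removal of 57 control probe sets, log2(signal + 25) was taken. Testing was limited to the 10533 of 15923 probe sets with a signal over 173.6 (the 40th percentile) on 3 arrays or more. Symbols came from the platform annotation of 2016, checked through Entrez identifiers against a current RefSeq table (0 changed). A single symbol was held by 12783 probe sets, more than 1 by 312, and none by 2771. Only single symbols were used, and the brightest tested probe set stood for each of 7728 genes.

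The tests are two-sided limma 3.58.1 tests (R 4.3.3, lmFit and eBayes on 5 group means over 18 arrays), with Benjamini-Hochberg adjustment over all tested probe sets of a comparison. SE is the standard error from limma. Folds are back-transformed differences in log2(signal + 25) and so understate changes of dim probe sets. Alternatives covered the pseudocount, filter, scaling, prior, arrays fitted, probe set choice, replicate block, actin and cardiac covariates, and each array left out. The script was tested on simulated data. Figures were drawn in Python 3.11.15 with matplotlib 3.10.9.

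The genes, the related lists and the marker lists were chosen with earlier results of these data known. From each related list, at most 4 called genes of smallest adjusted p could be named per comparison. For the 3 members of widest range of group means, the 3 genes of highest Pearson r were named.

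Whether a replicate number marks a rat is not stated. Deviations from group means correlated at 0.12, 0.31 and 0.15 between same-numbered left and right lungs at 30 min. Lungs of different number reached at most 0.1 there (left 1 with right 3). Among the 3 h lungs the same-numbered values were -0.17, 0.07 and -0.15. Left 1 with right 3, left 2 with right 1 and left 3 with right 2 gave 0.34, 0.22 and 0.16. The remaining pairings of different number gave -0.21, -0.24 and -0.02. Such correlations cannot tell which lungs shared a rat. The main fit treated no lungs as pairs at either time. A block on the replicate number was fitted only as an alternative, and at 30 min it changed no call of left against right among the 10 genes. Nothing in the labels says that the lungs of a group were processed apart, so p-values measure the spread between these lungs.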

Additional observations from a re-analysis of the deposited data

Results flagged for a closer look

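P4ha1 stood out because its left-right difference changed between the times, by 1.46 on the log2 scale (limma adjusted p = 0.0021), from no difference at 30 min to a higher level in the clamped lung at 3 h. In the controls, replicate 5 lay apart in the less bright Slc2a3 probe set, at 80.31 against 108.1 to 127.2 in the other controls, a gap of 0.636 of the range. Control replicate 3 lay apart in Vegfa, at a signal of 2836 against 3268 to 3508, a gap of 0.666 of the range on the same log2 scale. With 13 probe sets examined in the controls, chance alone flags about 1 in 20.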

How the results depend on the processing

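Of the 9 calls in the left lungs at 3 h, 7 (Slc2a1, Slc2a3, Slc16a3, Ldha, P4ha1, Bnip3 and Hif1a) held in all 22 alternatives, and in the right lungs at 3 h 2 of 5 did, P4ha1 and Bnip3. No call of the 24 over all comparisons turned its direction, while results that were not called changed sign 54 times. The cause of each change was not tested, except that fewer arrays or more fitted terms leave fewer degrees of freedom. With 3 lungs a group, changes of low signals such as Hk2 are the least certain.

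With the replicate block the number of the 10 genes called fell to 0 in the left and 0 in the right lungs at 30 min, to 2 in the right lungs at 3 h, to 1 for left 3 h against left 30 min and to 0 for how the left-right difference changed, and 4 passed the F test. In these fits with controls or between times the number is a block over all 18 arrays, and for left against right a block within each time over the 12 operated arrays. P4ha1 at 30 min was then -0.39 on the left (adjusted p = 0.12) and -0.39 on the right (adjusted p = 0.16), no longer called. The numbers do not join animals of different times or of the operated and control groups. In the right lungs at 30 min 1 was called without a filter, 4 with quantile normalization, 5 with only the compared groups fitted and 4 with the actin ratio as covariate. For left 3 h against left 30 min 1 was called without a filter, with only the compared groups, without the arrays of high actin ratio and with the actin covariate. Leaving out 1 array at a time gave 1 to 4 in the left and 0 to 2 in the right lungs at 30 min, 3 to 7 in the right lungs at 3 h, 1 to 2 for left against right at 3 h, 1 to 3 for left 3 h against left 30 min and 5 to 9 in the F test.

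Values that changed sign were mostly near 0. Hk2 in left lungs at 30 min was 0.01 at a pseudocount of 100, 0.03 centred, 0.14 with quantile normalization, 0.26 without the high-actin arrays, 0.48 with the actin and 0.08 with the cardiac covariate, and -0.17 to 0.29 with 1 array left out. Without the high-actin arrays Slc2a1 and Hif1a from 30 min to 3 h on the right were -0.01 and -0.01, Slc2a3 from 30 min to 3 h on the left was -0.10, and the change in its left-right difference -0.54 (-0.01 with the actin covariate). With the cardiac covariate Pgk1 was -0.57 for left against right at 3 h and -0.03 for left 3 h against left 30 min, and Vegfa was -0.04 from 30 min to 3 h on the right and 0.02 for how the left-right difference changed. Vegfa from 30 min to 3 h on the left was 0.01 centred and 0.34 with probe sets averaged, and its left-right difference then changed by 0.05. Averaging probe sets also turned 2 calls of related genes at 30 min on the left, Pdha1 (-0.04) and Flt1 (0.01).

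With 1 array left out, Slc2a1 ran from -0.06 to 0.18 in right lungs at 30 min, -0.01 to 0.29 at 3 h, -0.03 to 0.27 for left against right at 30 min and -0.09 to 0.23 from 30 min to 3 h on the right. For left against right at 30 min Slc16a3 ran from 0.00 to 0.41, Ldha from -0.09 to 0.18 and P4ha1 from -0.07 to 0.11. For left against right at 3 h Hk2 ran from -0.12 to 0.29, Pgk1 from -0.15 to 0.47, Vegfa from -0.20 to 0.33 and Bnip3 from -0.08 to 0.30. From 30 min to 3 h Pgk1 ran from -0.17 to 0.46 and Vegfa from -0.17 to 0.04 on the left, and on the right Ldha from -0.03 to 0.34, Vegfa from -0.18 to 0.35 and Hif1a from -0.01 to 0.26. Hif1a in right lungs at 30 min ran from -0.04 to 0.20. The left-right difference changed by -0.25 to 0.66 in Slc2a3, -0.52 to 0.11 in Pgk1 and -0.41 to 0.12 in Vegfa.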
